A study of Mus musculus with 12 samples.

Results

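The cytosolic ribosomal protein genes encode the protein part of the ribosome outside mitochondria: names beginning Rpl (and the stalk genes Rplp0, Rplp1 and Rplp2) belong to the large subunit, and names beginning Rps (with Rpsa) to the small subunit. They were taken by symbol alone, as Rpl or Rps followed by a number and at most one of the letters a, x, l or y, with pseudogenes left out. This gave 79 of the 17718 genes in the count table, 48 of the large and 31 of the small subunit. The symbols Rpl10l, Rpl32l, Rpl3l and Rps4l match the same rule and had no row in the table.

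The values are read counts per gene from bulk polyA RNA-seq of cultured CT26 cells, a line derived from a mouse colorectal carcinoma. There were 3 libraries of Mll3 knock-out cells and 3 of Mll3 wild-type cells, all untreated otherwise and with the same batch date in the labels. Mll3, now called Kmt2c, encodes an enzyme that methylates lysine 4 of histone H3, mainly at enhancers. The labels do not say whether the knock-out cells were 1 clone or several, nor whether each library had a culture of its own. The p-values below therefore rest on the spread among these 6 libraries, and that spread may be technical.

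A ribosome carries a single copy of nearly every one of these proteins around a core of ribosomal RNA, and the stalk proteins are the main exception. The small subunit reads the messenger RNA, while the large subunit forms the peptide bond and houses the exit tunnel of the new chain. Most of the messenger RNAs begin with a run of pyrimidines, the 5′ terminal oligopyrimidine or TOP element, through which mTORC1 sets their translation. Proteins made in excess of their partners are degraded, and free Rpl5 and Rpl11 can bind Mdm2 and so stabilise p53.

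Total counts ran from 9786242 to 11129754 in the knock-out libraries and from 9559658 to 13406013 in the wild-type libraries. Kmt2c itself was counted at 16.0, 11.2 and 14.8 counts per 1e6 counts (CPM, scaled between libraries) in the knock-out libraries, against 24.9, 26.2 and 25.02 CPM in the wild-type libraries, so its transcript was lower in the knock-out but not absent (log2 fold change -0.87, SE 0.129, edgeR adjusted p = 4.33e-08). Wild-type replicate 3 stood apart in a part of the ribosomal protein genes, and results that rest on it are given with and without it. Of 9 intestinal epithelium markers, Epcam, Cdh1, Krt19, Cdx1 and Cdx2 had no row in the table and Vil1 had at most 6 counts in a library in either genotype. The summed level of the 4 epithelial markers with a row was 161 to 174 CPM in knock-out and 53.03 to 55.5 CPM in wild-type libraries, with Krt8, Krt18 and Krt20 higher. The summed level of 5 fibroblast markers of 7 listed was 1320 to 1359 CPM in knock-out and 1008 to 1025 CPM in wild-type libraries, with 4 higher. For macrophages and other immune cells, 5 markers of 9 had rows and summed to 18.8 to 23.5 CPM in knock-out and 18.7 to 23.0 CPM in wild-type libraries, with Lyz2 higher and Csf1r lower. For endothelium, 3 markers of 4 had rows and summed to 1.96 to 3.11 CPM in knock-out and 0.471 to 1.94 CPM in wild-type libraries, with Pecam1, the 1 marker tested, higher. The part of these differences in the results on ribosomal protein genes was not tested.

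Most cytosolic ribosomal protein genes were lower in the knock-out cells, by small amounts, with the TMM scaling used here. With upper-quartile scaling this was not so: 27 were lower and 20 higher, beside 24.5% of all tested genes lower and 42.9% higher. With TMM scaling 50 of the 78 genes tested fell, 10 rose and 18 did not pass the threshold of an adjusted p under 0.05 (edgeR's quasi-likelihood test, Benjamini-Hochberg adjustment over all 13013 genes tested). That is 64.1% lower and 12.8% higher, beside 33.2% of all tested genes lower and 33.1% higher. In either direction 60 of 78 were called, beside 66.2% of all tested genes. The groups did not overlap for 56 of the 78 genes, beside 68.7% of all tested genes, so separation of the groups was about as frequent as elsewhere. The median log2 fold change was -0.17, within a range of -1.18 to 0.70, whereas the median over all tested genes was 0.02. Of the 60 called genes, 30 differed by less than 1.2-fold, 24 of them lower and 6 higher. A change of at least 1.5-fold was reached by 5 that fell and 1 that rose. In bulk samples fewer cells and less RNA per cell cannot be told apart, and CPM are relative to the rest of the transcriptome.

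**Figure D1:**
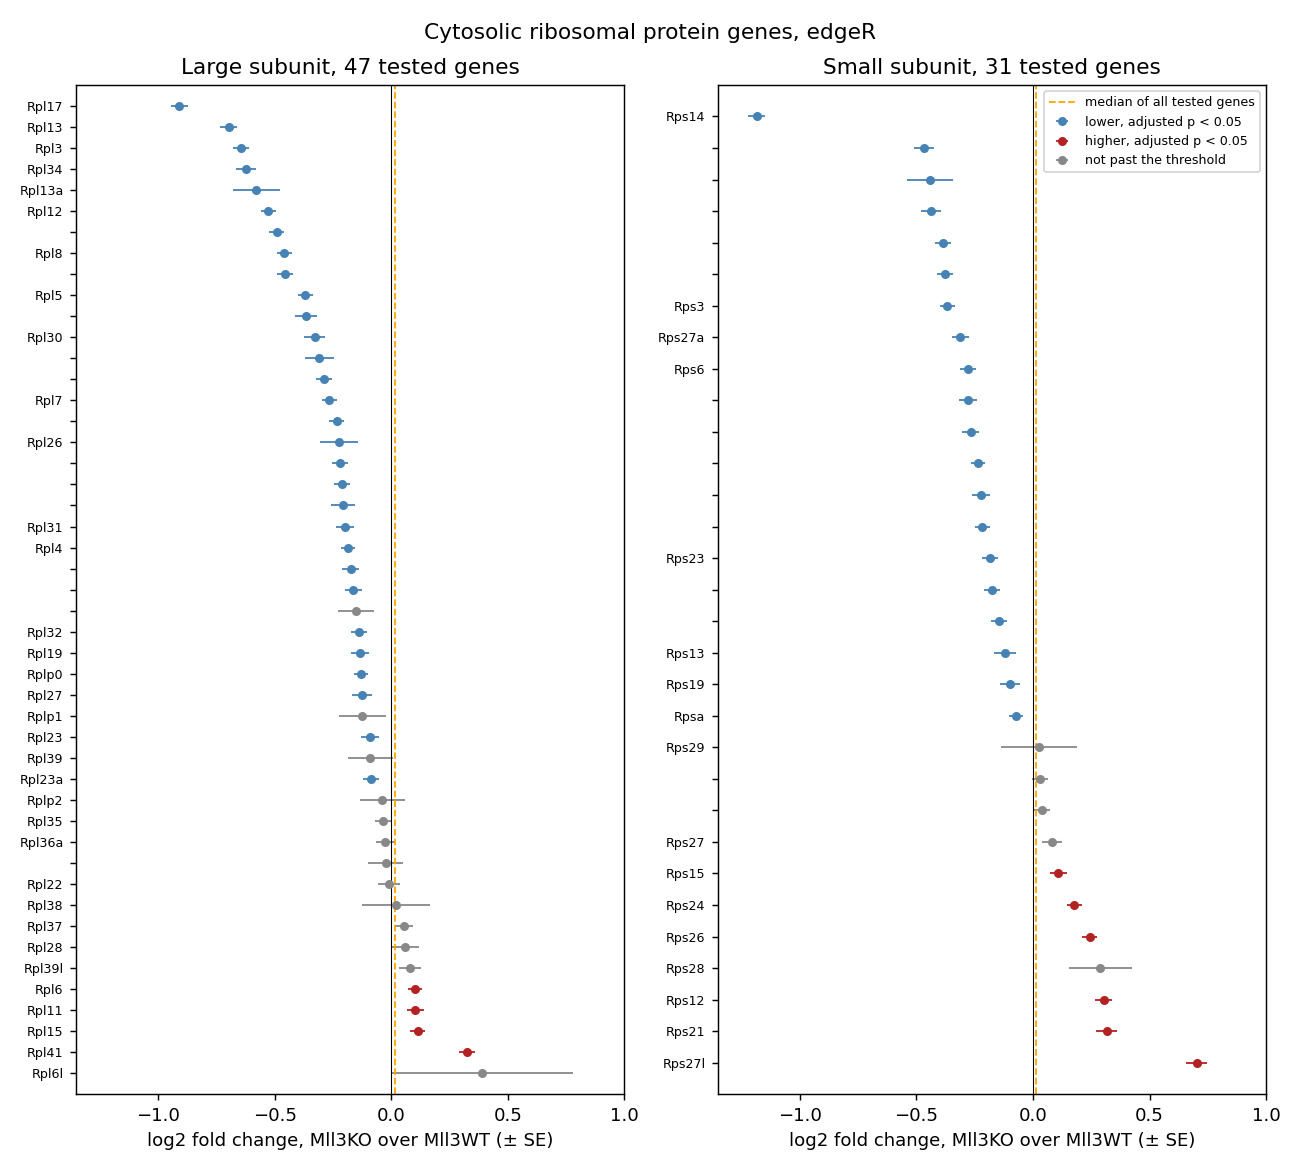
Log2 fold change (knock-out over wild-type) of each tested gene with its standard error, in order, for 47 large and 31 small subunit genes; colour marks the call and the dashed line the median of all tested genes, and genes named in the text carry their symbol. Rpl17 at -0.91 lies far to the left in the large subunit panel and Rps14 at -1.18 in the small subunit panel, and both panels show a long run of small falls. Of the 10 called rises 4 are in the large and 6 in the small subunit panel, where Rps27l is highest at 0.70. All values are with TMM scaling. With upper-quartile scaling 27 were lower and 20 higher, beside 24.5% of all tested genes lower and 42.9% higher.

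These genes are among the most abundantly counted in the cells, which bears on how small a difference can be called. The middle of their level range, between the quartiles, spans a mean log2 CPM of 8.53 to 9.86, and 278 other tested genes lie in that range. Of those, 56.1% were lower and 27.3% higher in the knock-out, with a median log2 fold change of -0.16. The share of lower genes and the median were thus close to those of the ribosomal protein genes, while higher genes were more frequent among the others. As a share of all counts, the 79 genes took 5.39% to 5.58% in the knock-out libraries and 5.68% to 5.94% in the wild-type libraries. The groups did not overlap in this share, which is free of any scaling factor.

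The size of the fall depends on the scaling between libraries. Upper-quartile scaling put the median of the ribosomal protein genes at -0.01 and that of all tested genes at 0.17, and unscaled library sizes put them at -0.05 and 0.14. The counts became 27 lower and 20 higher with upper-quartile scaling, and 32 lower and 17 higher with library size alone. Of all tested genes, 24.5% were lower and 42.9% higher with upper-quartile scaling, and 26.4% and 40.5% with library size alone. The distance between the median of the ribosomal protein genes and that of all tested genes was -0.18 under both, as under the TMM scaling used here, but it moved with the filter on low counts, to -0.11 for genes of at least 5 CPM in all 6 libraries and to -0.23 with no filter. All log2 fold changes below are with TMM scaling.

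**Figure D2:**
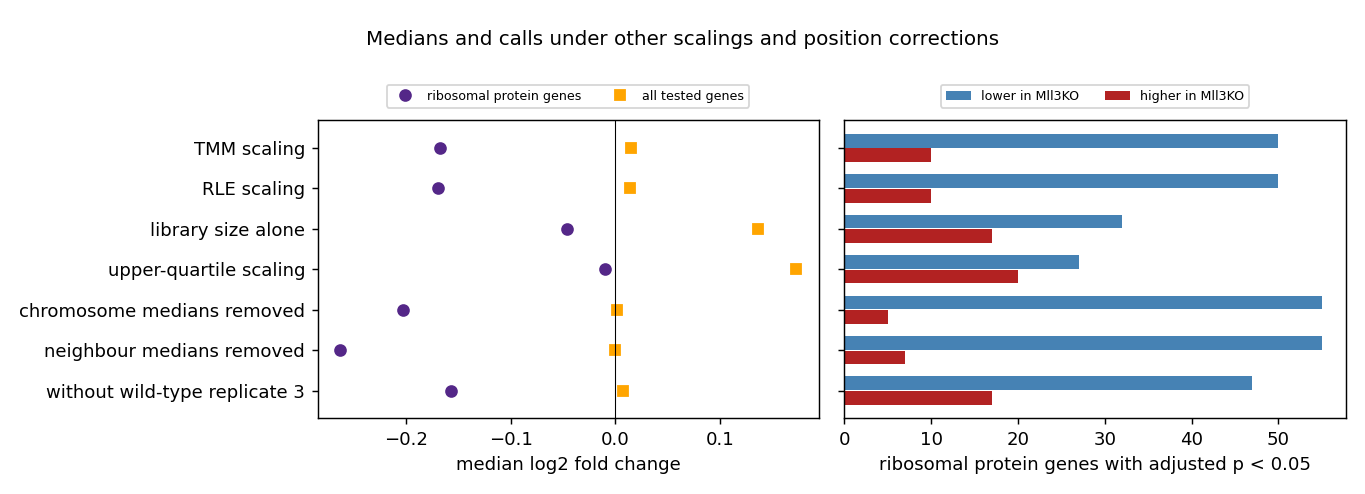
Left, median log2 fold change (knock-out over wild-type) of the ribosomal protein genes (circles) and of all tested genes (squares) under 7 settings; right, the number of ribosomal protein genes called lower (blue) or higher (red). Upper-quartile scaling shifts both medians to the right, with 27 lower and 20 higher, and removing chromosome or neighbour medians gives 55 lower. Of all tested genes, 24.5% were lower and 42.9% higher with upper-quartile scaling. With chromosome or neighbour medians removed, 32.9% and 33.3% of all tested genes were lower.

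The 2 subunits had like medians. In the large subunit 30 of 47 tested genes fell (63.8%) and 4 rose, with a median log2 fold change of -0.16. In the small subunit 20 of 31 fell (64.5%) and 6 rose, with a median of -0.18. Of all tested genes, 33.2% were lower and 33.1% higher. Of the 278 other genes in the level range of the ribosomal protein genes, 56.1% were lower and 27.3% higher, with a median of -0.16. The middle of the distribution ran from -0.32 to -0.03 in the large and from -0.30 to 0.06 in the small subunit (lower to upper quartile). Summed over genes, the large subunit had 30607 to 31437 CPM in knock-out libraries against 35865 to 36827 CPM in wild-type libraries, a difference of -14.5%. The small subunit summed to 21240 to 22036 CPM in knock-out libraries and 23709 to 24422 CPM in wild-type libraries, a difference of -10.3%. As an unscaled share of all counts, the large subunit took 3.18% to 3.28% in knock-out and 3.42% to 3.57% in wild-type libraries (-7.03%). The small subunit took 2.21% to 2.30% in knock-out and 2.26% to 2.37% in wild-type libraries (-2.54%), so its groups overlapped in this share. The ratio of large to small subunit counts was accordingly 1.43 to 1.44 in the knock-out and 1.50 to 1.51 in the wild-type libraries. When genes on chromosomes 8, 10, 14 and 18 were left out, the ratio was 1.57 to 1.61 in the knock-out and 1.61 to 1.62 in the wild-type libraries, so that the groups came to lie nearly side by side. The genes of a subunit are not replicates, and the comparison of subunits is a description without a test.

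The 2 largest falls were on chromosome 18. Rps14 (ENSMUSG00000024608, chromosome 18, 60774596 to 60778546, GRCm38.p6) encodes a small subunit protein of the platform, whose loss on one chromosome copy underlies the anaemia of the human 5q- syndrome. It had 447, 414 and 442 CPM in the knock-out libraries, against 977, 982 and 1003 CPM in the wild-type libraries. The knock-out libraries lay well under the lowest wild-type library, and the log2 fold change was -1.18 (SE 0.0353, n = 3 per group, edgeR adjusted p = 1.19e-35). Rpl17 (ENSMUSG00000062328, chromosome 18, 74998978 to 75003381) encodes a protein that lines the exit tunnel of the large subunit. It had 457, 444 and 459 CPM in the knock-out libraries, against 894, 860 and 800 CPM in the wild-type libraries. Again no library crossed over, with a log2 fold change of -0.91 (SE 0.0368, edgeR adjusted p = 2.04e-29).

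The next largest fall was that of Rpl13, a large subunit gene. Rpl13 (chromosome 8, 123102350 to 123105244) had 631, 601 and 626 CPM in the knock-out libraries, against 954, 975 and 1086 CPM in the wild-type libraries, which is lower (log2 fold change -0.70, SE 0.0373, edgeR adjusted p = 2.55e-22). The 3 knock-out libraries were close to each other and below every wild-type library. The 20 nearest other tested genes had a median of -0.51, so Rpl13 differed from its neighbours by -0.19.

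Rpl3, Rpl34, Rpl12 and Rpl13a, on other chromosomes, were next among the falls. Rpl3 (chromosome 15 from 80077781 to 80083406), a protein that reaches towards the peptidyl transferase centre, had 906, 853 and 883 CPM in the knock-out libraries, against 1417, 1415 and 1296 CPM in the wild-type libraries (log2 fold change -0.64, SE 0.0342, edgeR adjusted p = 5.27e-24). Rpl34 had 340, 309 and 317 CPM in the knock-out libraries, against 467, 484 and 535 CPM in the wild-type libraries (log2 fold change -0.62, SE 0.0425, edgeR adjusted p = 8.82e-18). Rpl12, at the base of the stalk where translation factors dock, had 1282, 1229 and 1258 CPM in the knock-out libraries, against 1860, 1817 and 1752 CPM in the wild-type libraries (log2 fold change -0.53, SE 0.0315, edgeR adjusted p = 1.02e-21). These 3 genes showed no overlap of the groups. Rpl13a, known in human myeloid cells for a second role in silencing inflammatory messenger RNAs, had only 25.3, 23.2 and 22.5 CPM in the knock-out libraries, against 32.3, 36.4 and 37.5 CPM in the wild-type libraries (log2 fold change -0.58, SE 0.101, edgeR adjusted p = 1.54e-06). Its groups were apart too, but it has many near-identical copies in the genome, and how the authors' counting treated reads that fit several places is not given in the sources used here, so its level is uncertain.

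The start regions of 3 of these genes are shown because they are among the strongest falls and had a RefSeq promoter window on GRCm38.p6. Each runs from 70 bases before to 30 bases after an annotated start, 5′ to 3′ on the strand of the gene, and capitals mark GGGCGG on either strand, the core letters of an SP1 site. They lie at chr8:123102280-123102379 on the plus strand, chr3:130730369-130730468 on the minus strand and chr2:32961642-32961741 on the plus strand.
Rpl13: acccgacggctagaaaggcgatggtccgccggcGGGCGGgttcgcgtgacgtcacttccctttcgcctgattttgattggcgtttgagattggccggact
Rpl34: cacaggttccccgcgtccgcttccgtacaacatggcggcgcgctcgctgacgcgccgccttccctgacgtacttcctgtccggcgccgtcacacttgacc
Rpl12: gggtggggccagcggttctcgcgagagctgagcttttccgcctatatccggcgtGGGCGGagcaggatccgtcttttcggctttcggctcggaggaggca

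Rps27l had the largest rise. It is a paralog of Rps27 that differs from it in a few residues near the start of the protein and is known as a p53 target. Rps27l (ENSMUSG00000036781, chromosome 9, 66944624 to 66949522) had 301, 269 and 292 CPM in the knock-out libraries, against 170, 175 and 185 CPM in the wild-type libraries. The lowest knock-out library was clearly above the highest wild-type library, and the log2 fold change was 0.70 (SE 0.0452, edgeR adjusted p = 2.33e-20). Rps27 itself, on chromosome 3, had 334, 316 and 336 CPM in the knock-out libraries, against 319, 285 and 327 CPM in the wild-type libraries. Its groups overlapped and it did not pass the test (log2 fold change 0.08, SE 0.0426, adjusted p = 0.0892). Rps27 did pass as higher in 5 of the other settings: without wild-type replicate 3 (0.11), with the filter of at least 5 CPM in all 6 libraries (0.15), with library size alone (0.20), with chromosome medians removed (0.23) and with upper-quartile scaling (0.24). The difference between the changes of the 2 paralogs was not tested.

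In the other pairs the paralog was not called with TMM scaling and all 6 libraries. Rpl39l, known as a testis-enriched form in mouse, had 178, 176 and 173 CPM in the knock-out libraries, against 162, 158 and 180 CPM in the wild-type libraries (log2 fold change 0.08, SE 0.0481, edgeR adjusted p = 0.134), with overlapping groups. Its parent Rpl39 had 299, 232 and 275 CPM in the knock-out libraries, against 280, 274 and 303 CPM in the wild-type libraries, again overlapping (log2 fold change -0.09, adjusted p = 0.457). Neither result was stable: Rpl39l passed as higher without wild-type replicate 3 (0.13), with chromosome or neighbour medians removed (0.12 and 0.18), with upper-quartile scaling (0.24), under the filter of at least 5 CPM (0.15) and with library size alone (0.20). Rpl39 passed as lower without the knock-out library in column sg1 (-0.18) and with no filter (-0.11). Rpl6l was near the floor of detection, with 2.25, 1.56 and 2.88 CPM in the knock-out libraries, against 1.26, 1.53 and 2.37 CPM in the wild-type libraries (log2 fold change 0.39, SE 0.387, adjusted p = 0.381). Rpl6, its parent, had 1277, 1306 and 1313 CPM in the knock-out libraries, against 1227, 1218 and 1184 CPM in the wild-type libraries, a small rise without overlap (log2 fold change 0.10, SE 0.0314, adjusted p = 0.00368).

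Rpl41, Rps12, Rps26 and Rps15, which rose, lie on chromosome 10. Rpl41, whose product is the shortest ribosomal protein, had 1092, 1042 and 1058 CPM in the knock-out libraries, against 827, 812 and 910 CPM in the wild-type libraries (log2 fold change 0.32, SE 0.0353, edgeR adjusted p = 6.92e-12). Rps12 had 690, 688 and 660 CPM in the knock-out libraries, against 534, 532 and 587 CPM in the wild-type libraries (log2 fold change 0.30, SE 0.0368, adjusted p = 2.07e-10). Rps26, a protein at the messenger RNA exit channel, had 1081, 1151 and 1102 CPM in the knock-out libraries, against 943, 929 and 945 CPM in the wild-type libraries (log2 fold change 0.24, SE 0.0326, adjusted p = 3.07e-09). All 3 were separate between the groups. Rps15, a protein of the small subunit head, had 703, 759 and 721 CPM in the knock-out libraries, against 717, 658 and 649 CPM in the wild-type libraries, so that 1 wild-type library lay above 1 knock-out library (log2 fold change 0.11, SE 0.0367, adjusted p = 0.00755). The Rps15 call was lost without wild-type replicate 2 (0.09, adjusted p = 0.0683) and without the knock-out library in column sg2 (0.07, adjusted p = 0.147).

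Rps21, Rps24 and Rpl15, which also rose, lie on chromosomes 2 and 14. Rps21, on chromosome 2, had 418, 378 and 396 CPM in the knock-out libraries, against 307, 301 and 350 CPM in the wild-type libraries (log2 fold change 0.32, SE 0.0458, edgeR adjusted p = 1.9e-07). Rps24, a Diamond-Blackfan anaemia gene in humans, had 1405, 1413 and 1385 CPM in the knock-out libraries, against 1276, 1227 and 1212 CPM in the wild-type libraries (log2 fold change 0.18, SE 0.0315, adjusted p = 1.79e-06). Rpl15 had 833, 808 and 806 CPM in the knock-out libraries, against 751, 744 and 767 CPM in the wild-type libraries (log2 fold change 0.11, SE 0.0333, adjusted p = 0.00233). None of these 3 overlapped. Rpl11, one of the Mdm2-binding proteins, also rose by a small amount (log2 fold change 0.10, SE 0.036, adjusted p = 0.00974), a call that was lost without wild-type replicate 1 or without the knock-out libraries in columns sg1 or sg3 (adjusted p = 0.0667, 0.105 and 0.0916). Rpl5, its partner in the particle with 5S ribosomal RNA, fell (log2 fold change -0.37, SE 0.0325, adjusted p = 5.73e-15).

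**Figure D3:**
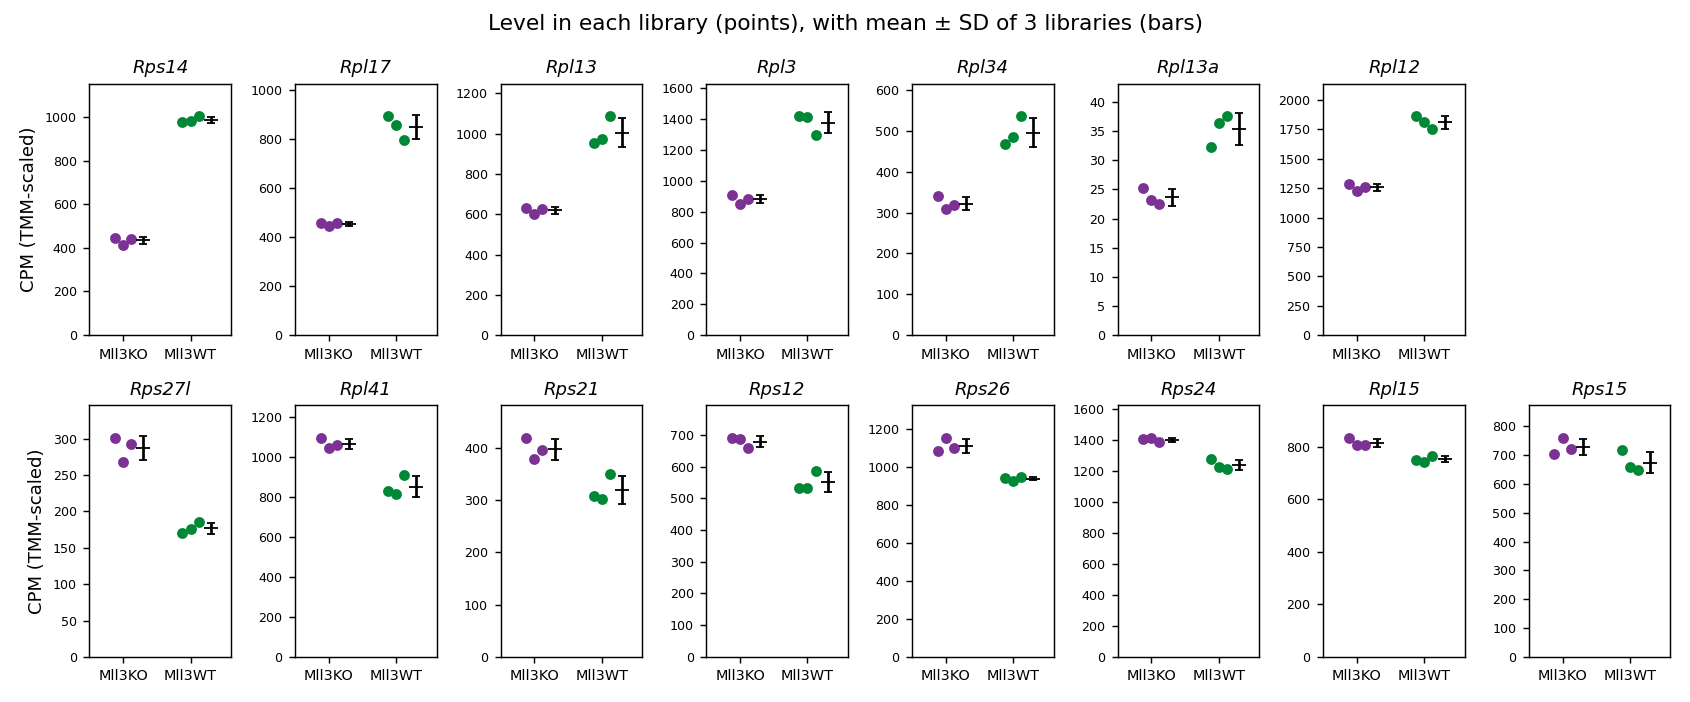
TMM-scaled CPM in each library (points) with mean ± SD of 3 libraries (bars), knock-out left and wild-type right, for 7 of the largest falls (top) and the 8 largest rises (bottom); each panel has its own axis from 0. Groups are separate in every panel other than Rps15, where the highest wild-type library at 717 lies above the lowest knock-out library at 703.

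The start regions of Rps27l, its parent Rps27 and the chromosome 10 genes Rpl41 and Rps26 are given in the same way, with the paralogs set beside each other because Rps27l was called in every setting run and Rps27 in some of them. They lie at chr9:66946016-66946115 (plus strand), chr3:90213619-90213718, chr10:128549139-128549238 and chr10:128626477-128626576 (all minus strand). Capitals mark CCGGAAG on either strand, the letters read by ETS factors such as GABP, in Rps27l and Rpl41. They also mark CCGCCC, the reverse complement of GGGCGG, in Rpl41. In Rps26 they mark CTCTTTC, a pyrimidine run that begins at base 6 from the annotated start.
Rps27l: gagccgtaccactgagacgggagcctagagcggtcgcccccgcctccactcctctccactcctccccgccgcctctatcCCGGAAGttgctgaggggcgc
Rps27: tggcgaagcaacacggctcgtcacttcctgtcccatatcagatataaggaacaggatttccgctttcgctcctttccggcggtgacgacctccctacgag
Rpl41: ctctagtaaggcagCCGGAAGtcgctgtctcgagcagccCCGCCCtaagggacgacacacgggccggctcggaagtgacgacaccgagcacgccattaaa
Rps26: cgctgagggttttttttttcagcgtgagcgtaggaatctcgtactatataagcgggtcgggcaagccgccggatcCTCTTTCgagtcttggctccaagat

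RefSeq promoter windows, 300 bases from 250 before to 50 after a start, were at hand for 58 of the 79 genes. The motifs were searched as exact letters and none contains another. CTCTTTC on the sense strand was in 13 of the 58 genes (22.4%), beside 4.6% of the 27025 genes with a window. CCGGAAG on either strand was in 25 (43.1%), beside 9.93% of all genes. GGGCGG on either strand was in 35 (60.3%), beside 38.2% of all genes. The YY1 letters AAGATGG on either strand were in 9 (15.5%), beside 7.28%, and TATAAA on the sense strand was in 5 (8.62%), beside 9.77%. By call, GGGCGG was in 26 of 34 genes that fell, 4 of 10 that rose and 5 of 13 that did not pass (1 gene was not tested), and CCGGAAG in 11 of 34, 7 of 10 and 7 of 13. CTCTTTC was in 7 of 34 genes that fell and 3 of 10 that rose. It was counted anywhere in the window, from 65 bases before the start (Rpl11) to base 44 after it (Rps23). The count therefore does not measure TOP elements, which begin the messenger RNA. These are counts of letters in windows, without a test.

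The 4 genes with the highest CPM, a level not corrected for transcript length, were Rplp0, Rpsa, Rpl4 and Rpl12. Rplp0, the scaffold of the stalk, had 2095, 2092 and 2075 CPM in the knock-out libraries, against 2246, 2253 and 2349 CPM in the wild-type libraries (log2 fold change -0.13, SE 0.0299, edgeR adjusted p = 0.000156). Rpsa, which is also known as a laminin receptor, had 2022, 2063 and 2102 CPM in the knock-out libraries, against 2166, 2176 and 2163 CPM in the wild-type libraries (log2 fold change -0.07, SE 0.0297, adjusted p = 0.0291). Rpl4, which reaches into the exit tunnel, had 1906, 1906 and 1901 CPM in the knock-out libraries, against 2211, 2177 and 2112 CPM in the wild-type libraries (log2 fold change -0.19, SE 0.03, adjusted p = 2.61e-07). Knock-out and wild-type libraries did not overlap in any of the 4, but the directions of Rplp0 and Rpsa turned with upper-quartile scaling (0.03 and 0.08) and that of Rpsa also with library size alone (0.05). The Rpsa call was also lost without wild-type replicate 2 (adjusted p = 0.0741) and without the knock-out library in column sg1 (adjusted p = 0.0705). It was lost as well under the filter of at least 5 CPM in all 6 libraries (-0.01, adjusted p = 0.824).

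Other genes with known roles were spread along the same range. Rps6, the substrate of S6 kinase, fell (log2 fold change -0.28, SE 0.0345, edgeR adjusted p = 3.6e-10), as did Rps3 at the messenger RNA entry channel (-0.37, SE 0.0322, adjusted p = 4.84e-15) and Rps27a, which is made as a fusion with ubiquitin (-0.31, SE 0.0365, adjusted p = 1.61e-10). The acidic stalk genes Rplp1 and Rplp2 did not pass the test (log2 fold changes -0.12 and -0.04, SE 0.102 and 0.0972, adjusted p = 0.347 and 0.762). Rpl24, a large subunit gene, was the 1 gene not tested, with 9, 5 and 4 counts in the knock-out libraries and 7, 4 and 5 in the wild-type libraries. As for Rpl13a, the treatment of reads that fit several places is not given in the sources used here, so the level of Rpl24 is uncertain, and no difference was detectable at these counts.

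Wild-type replicate 3 was high for a group of these genes. Relative to the mean of the other 2 wild-type libraries, it was above 1.1 for 22 of the ribosomal protein genes, and for 6 of the 278 other genes in the same level range. Among knock-out libraries, the one in column sg1 was above 1.1 relative to the other 2 for 12 of the genes, and the one in column sg2 was below 0.9 for 11. The ratio of wild-type replicate 3 was 1.33 for Rps28, 1.32 for Rps29, 1.28 for Rpl38 and 1.21 for both Rplp1 and Rplp2, and 11 of the 18 genes that did not pass the test had a ratio above 1.1. Rps28, a small protein of the messenger RNA exit region, had 198, 177 and 193 CPM in the knock-out libraries, against 138, 142 and 186 CPM in the wild-type libraries. Wild-type replicate 3 alone lay among the knock-out values, and the test was not passed (log2 fold change 0.29, SE 0.135, edgeR adjusted p = 0.124). Without that library Rps28 was higher (0.42, adjusted p = 1.33e-17), as it was with all libraries under no filter (0.27) and limma voom (0.31). Among the other genes that passed as higher without it were Rps27, Rps29, Rpl28, Rpl38 and Rpl39l, with log2 fold changes of 0.11 to 0.16. Rps19, Rpl23 and Rpl27 lost their lower call. The counts without it were 47 lower and 17 higher, so the number of rises rests on this library. Of all tested genes, 33.1% were lower and 32.1% higher without it.

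By chromosome, the called rises gathered where other genes were higher as well. The median log2 fold change of the other tested genes was 0.36 on chromosome 10 and 0.35 on chromosome 14, and 6 of the 7 ribosomal protein genes there rose (all but Rpl6l). These were 6 of the 10 rises in all. Of the other tested genes, 61.1% were higher on chromosome 10 and 59.1% on chromosome 14. The median of the other tested genes was -0.35 on chromosome 8 and -0.31 on chromosome 18, where 56.3% and 54.5% of them were lower. All 4 ribosomal protein genes there fell. On the remaining chromosomes 46 of 67 genes fell and 4 rose (Rps27l, Rps21, Rpl6 and Rpl11), with a median of -0.18. On some of them the falls ran against the rest of the chromosome. On chromosome 7, which holds 14 of the genes, 11 fell, while the other genes had a median of 0.09 and 28% were lower. On chromosome 15, 3 of 4 fell (Rpl3, Rpl8 and Rpl30), while the others had a median of 0.14 and 27.3% were lower.

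**Figure D4:**
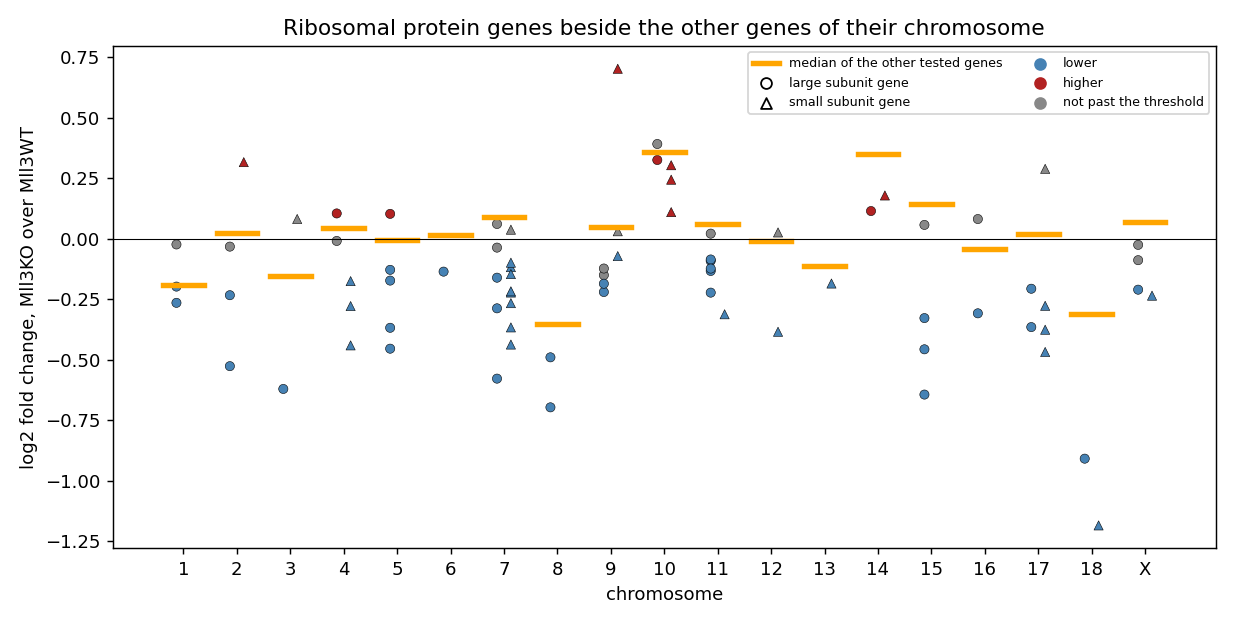
Log2 fold change (knock-out over wild-type) of each ribosomal protein gene by chromosome, with the median of the other tested genes of that chromosome as a bar. On chromosomes 10 and 14 the genes sit above 0 but mostly under the bar, on chromosomes 8 and 18 below both 0 and the bar, and on chromosomes 7 and 15 most lie below 0 while the bar is above it.

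Against their nearest neighbours most of the genes were low, which no scaling of whole libraries can move. Beside the 20 nearest tested genes that are no ribosomal protein genes, 65 of 78 (83.3%) lay under the neighbours' median, compared with 50.2% of 11845 other genes and 67.9% of 268 other genes in the same level range. The median distance to the neighbours was -0.26, with -0.24 in the large and -0.26 in the small subunit. With 10 neighbours 61 genes, and with 40 neighbours 65 genes, lay under the median. Rps14 fell more than its neighbours (neighbour median -0.35, difference -0.83), whereas Rpl17 was close to its own (neighbour median -0.83, difference -0.08). Rps15 rose less than its neighbours (neighbour median 0.74, difference -0.63). Rps27l (neighbour median 0.02) and Rps21 (neighbour median -0.09) stood above theirs.

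When the chromosome median was removed from every gene, 55 ribosomal protein genes were lower and 5 higher, and when the neighbour median was removed 55 were lower and 7 higher. Of all tested genes, 32.9% were lower and 31.9% higher with chromosome medians removed, and 33.3% and 31.5% with neighbour medians removed. The rises of chromosomes 10 and 14 did not outlast either removal. With chromosome medians removed Rpl15 (-0.24), Rps15 (-0.25), Rps24 (-0.17) and Rps26 (-0.12) were called lower, and Rps12 (-0.06) and Rpl41 (-0.03) were not called. With neighbour medians removed Rps26 (0.00) and Rpl41 (0.08) were not called, while Rpl15, Rps12, Rps15 and Rps24 were lower. The rises of Rps27l (0.66 and 0.68), Rps21 (0.29 and 0.40) and Rpl6 (0.11 and 0.32) remained past the threshold in both, and Rpl11 lost its call with chromosome medians removed (0.06). Among falls, Rpl31 and Rps23 lost the call with chromosome medians removed, and Rpl7, Rpl26, Rplp0 and Rps13 with neighbour medians removed. What lies behind the shifts of whole chromosomes was not tested.

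**Figure D5:**
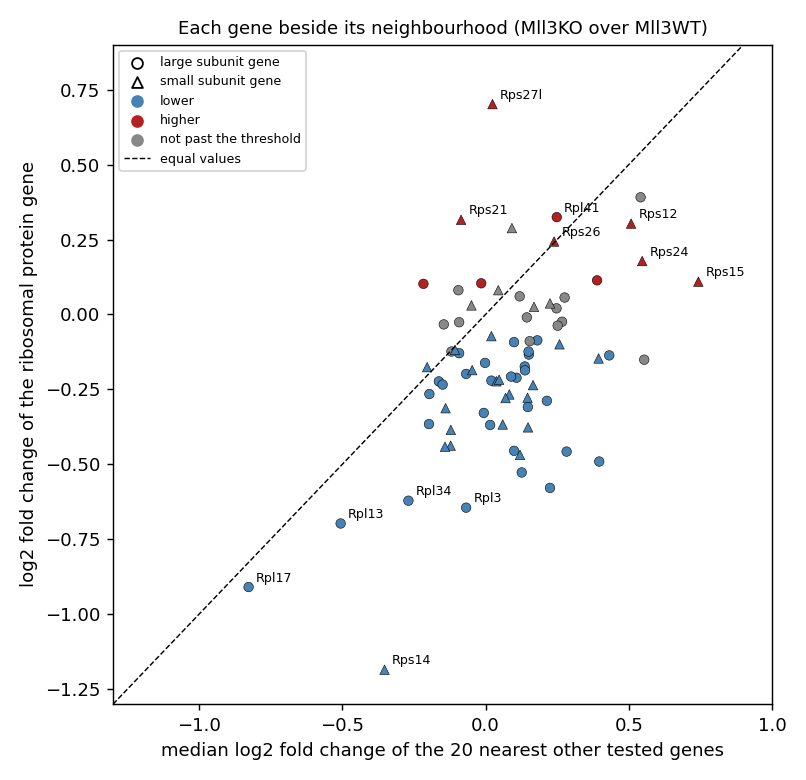
Log2 fold change (knock-out over wild-type) of each ribosomal protein gene (vertical) against the median of its 20 nearest other tested genes (horizontal); the dashed line marks equal values. Of 78 points 65 lie under the line, among them Rps15 and Rps24 with higher neighbours, while Rpl17 lies near the line and Rps27l and Rps21 lie above it.

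Related lists, counted in the same fit, were mixed. For comparison, 33.2% of all tested genes were lower and 33.1% higher. Of the 278 other genes in the level range of the ribosomal protein genes, 56.1% were lower and 27.3% higher. Of 7 ribosomal protein genes outside the name pattern 4 fell and 0 rose: Rack1 (log2 fold change -0.41), a scaffold on the small subunit, Rpl22l1 (-0.96), a paralog of Rpl22, Fau (-0.30), the precursor of Rps30, and Rps3a1 (-0.15). Their differences from the median of their 20 nearest genes were -0.11, -1.03, -0.46 and -0.30, in the same order. Mitochondrial ribosomal protein genes were divided, with 20 lower and 24 higher of 77 tested and a median of -0.01. Of 30 tested ribosomal protein pseudogenes 5 fell and 1 rose, and pseudogene rows together took 0.111% to 0.122% of counts in knock-out and 0.126% to 0.142% in wild-type libraries. Reads of a gene and of its pseudogenes can be hard to tell apart, and summing the pseudogene rows into their parents gave 49 lower and 10 higher.

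Other translation genes with TOP messenger RNAs were split: of 14, 7 fell and 4 rose, beside 33.2% of all tested genes lower and 33.1% higher. Eef1g and Eef1b2, subunits of the elongation factor exchange complex, fell (log2 fold changes -0.56 and -0.46), and Pabpc1, the poly(A)-binding protein, and Nap1l1 rose (0.38 and 0.35). The medians of their 20 nearest genes were -0.47, -0.36, -0.27 and 0.54. Eef1g and Eef1b2 were thus close to their neighbours (difference -0.09 for both), and Nap1l1 lay below its own (-0.19). Of 14 TOP and mTORC1 regulators 8 fell and 3 rose, among them Rheb, the GTPase that activates mTORC1 (-0.60), Larp1, which binds the TOP element (-0.27), and the translation repressors Eif4ebp1 (-0.46) and Eif4ebp2 (0.71). Against their neighbours' medians Rheb, Larp1 and Eif4ebp2 kept their direction (-0.64, -0.41 and 0.20). Eif4ebp1 lay above its neighbours (neighbour median -0.62, difference 0.16). Of 14 tested chaperones and import factors of ribosomal proteins 9 fell and 2 rose, with Ipo7 at -0.64, Heatr3 at -0.79, Ltv1 at -0.66 and Ipo5 at 0.48. Ipo7, Heatr3 and Ltv1 lay below their neighbours as well (differences -0.64, -0.30 and -0.81). Ipo5 also lay below its neighbours, although it rose (neighbour median 0.63, difference -0.15).

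For ribosomal RNA synthesis, 6 of 11 genes of RNA polymerase I and its factors fell and 3 rose, with Taf1a at a log2 fold change of -1.15, Taf1d at -0.64, Polr1b at -0.60 and Taf1b at -0.51. Among 8 factors known to act at ribosomal protein promoters 5 fell and 2 rose, beside 33.2% of all tested genes lower and 33.1% higher. Myc, a transcription factor that drives ribosome production, averaged 168 CPM in the knock-out and 305 CPM in the wild-type libraries (log2 fold change -0.86, SE 0.0423, edgeR adjusted p = 1.54e-25), and Tbp (-0.58), Yy1 (-0.51) and Tbpl1 (-0.43) fell as well. Of 6 genes of the ribosomal stress and p53 group 1 fell and 3 rose: Mdm4, an inhibitor of p53 (-0.84), Mdm2 (0.55), Cdkn1a (0.35) and Pdcd4, an inhibitor of translation initiation (1.51), while Trp53 did not pass the test (0.09, adjusted p = 0.0910). Against the median of their 20 nearest genes, the genes named here that passed the test kept their direction, with Tbp at -0.18 and Mdm2 at 0.23. No relation between the genes named here and the ribosomal protein genes was tested.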

How the data were processed

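The authors deposited 1 table of raw read counts per gene, in whole numbers. Per the labels' protocols the libraries were strand-specific and made from polyA RNA, and the submitters' processing notes name build mm10 and the tools STAR, HTSeq, fastp, SEACR, Bowtie2 and deepTools. Their roles and versions, the annotation release, the strand setting and the treatment of reads that fit several places were not given in the sources used here. Wild-type columns were matched to samples by number. Knock-out columns were matched to the group only, since the labels do not say whether their number is a replicate or a guide; 0 columns were left unmapped. CUT&Tag and single-cell samples were not analysed here.

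Genes were filtered with filterByExpr (minimum count 10, minimum total 15), scaled by TMM and tested with edgeR 4.0.16 (limma 3.58.1, R 4.3.3), quasi-likelihood with robust estimation, Benjamini-Hochberg adjustment over 13013 genes and a threshold of 0.05. The common biological coefficient of variation was 5.03%. Fold changes divide knock-out by wild-type, and 1 count is 0.0786 to 0.108 CPM. The squared differences between library pairs of a group were 2.14 to 4.19 times what counting alone gives (chi-square per gene), so none was merged. Positions of 11923 tested genes and promoter windows came from RefSeq on GRCm38.p6. The steps were tested on simulated data. Alternatives were other scalings, filters and thresholds, DESeq2 1.42.0, limma voom, removal of chromosome or neighbour medians, omission of each library and, chosen after seeing the data, pseudogene rows summed into their parents.

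The genes and lists were chosen with earlier results of these data known. Values in every library are given for the 8 largest rises and falls past the threshold, the 4 genes with the highest mean CPM, genes whose symbol ends in l with their parents, and genes on chromosomes whose median lies outside -0.3 to 0.3; Rps28 and Rpl24 were added after their values were seen. From each other list at most 4 genes with the smallest p are named, plus Trp53, which was added in the same way. Some genes that meet the rule are counted in the totals but not reported here one by one.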

Additional observations from a re-analysis of the deposited data

How the results depend on the processing

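Counts of lower and higher genes stayed within 1.5 times those reported under RLE scaling, TMM without the ribosomal protein genes, no filter, DESeq2, limma voom, an adjusted p under 0.01 and summed pseudogenes. With upper-quartile scaling they were 27 and 20 (large subunit 16 and 10, small 11 and 10; median of all ribosomal protein genes -0.010), and with library size alone 32 and 17 (large 19 and 8, small 13 lower; median -0.046). Against a 1.2-fold change they were 17 and 2 (large 11 and 1, small 6 and 1). Of all tested genes, 24.5% were lower and 42.9% higher with upper-quartile scaling, and 26.4% and 40.5% with library size alone. Against a 1.2-fold change 22.1% and 23% of all tested genes were. With chromosome medians removed 5 ribosomal protein genes were higher (large 2, small 3), with a median of -0.20 and a large minus small difference of 0.053. With neighbour medians removed 3 of the small subunit were higher, with a median of -0.26. Genes of at least 5 CPM in all 6 libraries gave a median of -0.11, with 41 lower and 15 higher of 77 tested. Under that filter 36.2% of all tested genes were lower and 35.4% higher. Leaving out 1 library gave 46 to 49 lower and 9 to 17 higher (large 28 to 30 and 3 to 7, small 18 to 19 and 5 to 10), with a median of -0.19 to -0.16. In those fits 30.8% to 33.1% of all tested genes were lower and 29.4% to 32.1% higher. Among the genes reported here, directions turned with upper-quartile scaling for Rpl19 (0.023), Rpl22 (0.15), Rpsa (0.085), Rps19 (0.057), Rpl32 (0.0202), Rpl23a (0.071), Rpl35 (0.12), Rpl27 (0.033), Rplp0 (0.028), Rpl23 (0.064), Rpl36a (0.13) and Rps13 (0.039). They turned with library size alone for Rpsa (0.049), Rps19 (0.021), Rpl23a (0.035), Rpl35 (0.088), Rpl23 (0.028), Rpl36a (0.10) and Rps13 (0.0033). With chromosome medians removed they turned for Rpl15 (-0.24), Rps24 (-0.17), Rps26 (-0.12), Rpl37 (-0.085), Rps12 (-0.055), Rps15 (-0.25) and Rpl41 (-0.034), and with neighbour medians removed for Rpl15 (-0.28), Rps24 (-0.37), Rpl37 (-0.22), Rps12 (-0.20), Rpl35 (0.11) and Rps15 (-0.63). The cause was not tested beyond the construction of each alternative. The side of the threshold was kept under every alternative run by 17 genes that fell (among them Rps14, Rpl17, Rpl13, Rpl3, Rpl34 and Rpl12) and 1 that rose (Rps27l). The size was not kept: with neighbour medians removed Rpl13 was at -0.19 and Rpl17 at -0.08. Rps14, Rpl3, Rpl34 and Rpl12 were then at -0.83, -0.58, -0.35 and -0.65. No paired analysis was possible because the knock-out columns carry no replicate number of the labels. Depth limits Rpl24, Rpl6l and Rpl13a most, the genes with the fewest counts.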
